A study of Mus musculus with 10 samples.

Results

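The genes described here are 9 transcripts of B cells and of antibody-secreting (plasma) cells, measured in a T cell fraction of mouse melanomas. They were taken by gene symbol from the 48825 genes of a normalized count table, and each symbol was found once. Of these, 5 mark B cells (Ms4a1, Cd79a, Cd79b, Pax5 and Fcmr) and 4 are most abundant in antibody-secreting cells (Jchain, Mzb1, Iglc2 and Igkc).

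B cells recognise antigen through a membrane immunoglobulin that signals through the Cd79a and Cd79b proteins, and Pax5 keeps their identity. On activation they can become plasma cells, which lose Pax5 and Ms4a1 and make large amounts of immunoglobulin transcript. An antibody light chain transcript joins a variable segment, a joining segment and a constant region such as Igkc or Iglc2. CD40 is a receptor through which helper T cells activate B cells, so an agonistic CD40 antibody can act on B cells as well as on myeloid cells. CSF1R is the growth factor receptor of macrophages.

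The series is bulk RNA sequencing of 10 libraries, each from at least 3 pooled tumors, in 4 groups. The alleles of all mice included BrafCA and Tyr::CreER, in which a tamoxifen-inducible Cre under a melanocyte promoter acts on Braf. The genotype field nevertheless reads wild type, and the tissue field names macrophages while the titles name T cells. The CSF1Ri+CD40 group (2 libraries, numbered 1 and 3) received the inhibitor PLX6134 in chow at 600 mg/kg together with the agonistic CD40 antibody FGK4.5 at 10 mg/kg. The CD40 group (3 libraries, 1 to 3) received the antibody, the CSF1Ri group (2 libraries, 1 and 6) received the inhibitor, and the control group (3 libraries, 1 to 3) received neither. Treatment began 30 days after induction, and the antibody was injected every 3 days for up to 10 doses. The age of the mice is not given in the sources used here, and CSF1Ri 1 is the library with no number in its title. Because libraries are pools, a p-value here measures the spread between pools.

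Normalized counts summed to between 11538244 in CD40 3 and 14024851 in CD40 2, which are scaled totals and not read depths. T cell markers dominated, with Cd3e between 10586 and 23096 normalized counts over the 10 libraries. The 9 B lineage genes together held 1365 and 1718 normalized counts in the CSF1Ri+CD40 libraries and 3101, 824 and 914 in the CD40 libraries. They held 5451 and 896 in the CSF1Ri libraries, against 1281, 3396 and 2924 in the control libraries. Igkc alone supplied 969 and 1446 of these counts in CSF1Ri+CD40 libraries and 1861, 405 and 426 in CD40 libraries. It supplied 3728 and 458 in CSF1Ri libraries, and 654, 2394 and 1921 in control libraries. The 5 B cell genes summed to 396 and 272 in CSF1Ri+CD40 libraries and 393 to 561 in CD40 libraries. They summed to 650 and 325 in CSF1Ri libraries and 385 to 806 in control libraries. The largest share of the 9 genes in any library was 0.0436%, in CSF1Ri 1, and the smallest 0.00588%, in CD40 2. Other B cell genes ranged widely. Fcer2a was listed at 0 in 9 libraries and Fcrl5 at 0 in all 10, whereas Cd72 ran from 151 to 539, Fcrl1 from 54 to 420 and H2-Ob from 31 to 389 normalized counts. In bulk RNA, fewer cells of a type and less RNA per cell cannot be told apart.

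Transcripts of the sex-linked Y genes were near 0 in 7 libraries but summed to 1569 in CD40 2, 3072 in CD40 3 and 2438 in control 1. Malat1, a nuclear RNA, ran from 14056 in control 2 to 95260 in CD40 3. The number of genes above 0 was highest in CSF1Ri 1 (17196) and control 3 (17178), and 16609 in CD40 1. Their part in the results was not tested, except where values without the Y-positive libraries are given.

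The results turn on immunoglobulin transcripts, and 4 libraries held over 1000 normalized counts of kappa variable segments. The leading segment of each is printed here as the last 120 bases of its germline sequence (GENCODE vM21 transcripts, GRCm38, written in the direction of the gene). Capitals mark the 26 bases from the last conserved cysteine codon to the 3′ end, the germline part of the antigen-contacting loop CDR3. The coordinates are those of the printed bases. Igkv12-46 led in CD40 1, with these bases at chr6:69764523-69764642 on the minus strand. Igkv6-15 led in CSF1Ri 1, at chr6:70406469-70406588 on the minus strand. Igkv1-135 led in control 2, at chr6:67610389-67610508 on the plus strand. Igkv12-44 led in control 3, at chr6:69814631-69814750 on the minus strand.
Igkv12-46: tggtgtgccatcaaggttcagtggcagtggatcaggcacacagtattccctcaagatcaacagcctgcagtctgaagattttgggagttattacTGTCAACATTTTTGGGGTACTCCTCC
Igkv6-15: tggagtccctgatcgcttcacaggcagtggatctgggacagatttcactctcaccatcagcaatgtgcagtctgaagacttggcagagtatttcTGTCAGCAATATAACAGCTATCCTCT
Igkv1-135: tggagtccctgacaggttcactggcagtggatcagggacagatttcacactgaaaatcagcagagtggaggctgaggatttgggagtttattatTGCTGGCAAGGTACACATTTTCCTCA
Igkv12-44: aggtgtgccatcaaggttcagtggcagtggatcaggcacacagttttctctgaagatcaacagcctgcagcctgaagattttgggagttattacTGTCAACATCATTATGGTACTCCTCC
Igkv12-46 and Igkv12-44 matched at 356 of 377 aligned bases (94.4%), so reads shared between them depend on how they were assigned. The other pairs matched at 63.0% to 67.4%.

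Levels between genes were compared per kilobase of exon. Igkc, the kappa constant region, averaged 2681 normalized counts per kb over the 10 libraries, and its lowest library (761) lay above the highest library of Cd79b (393). Cd79b averaged 231 per kb and Cd79a 61.5 per kb. Their ranges, 122 to 393 for Cd79b and 15.8 to 121 for Cd79a, lay next to each other without overlap. Jchain averaged 82.8, Mzb1 48.9, Iglc2 30.7, Fcmr 7.37, Ms4a1 6.30 and Pax5 0.192 normalized counts per kb. Jchain overlapped both Cd79b and Cd79a. The other neighbours in the order also overlapped over the libraries, and Jchain, Mzb1, Iglc2, Fcmr, Ms4a1 and Pax5 were each listed at 0 in at least 1 library.

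**Figure D1:**
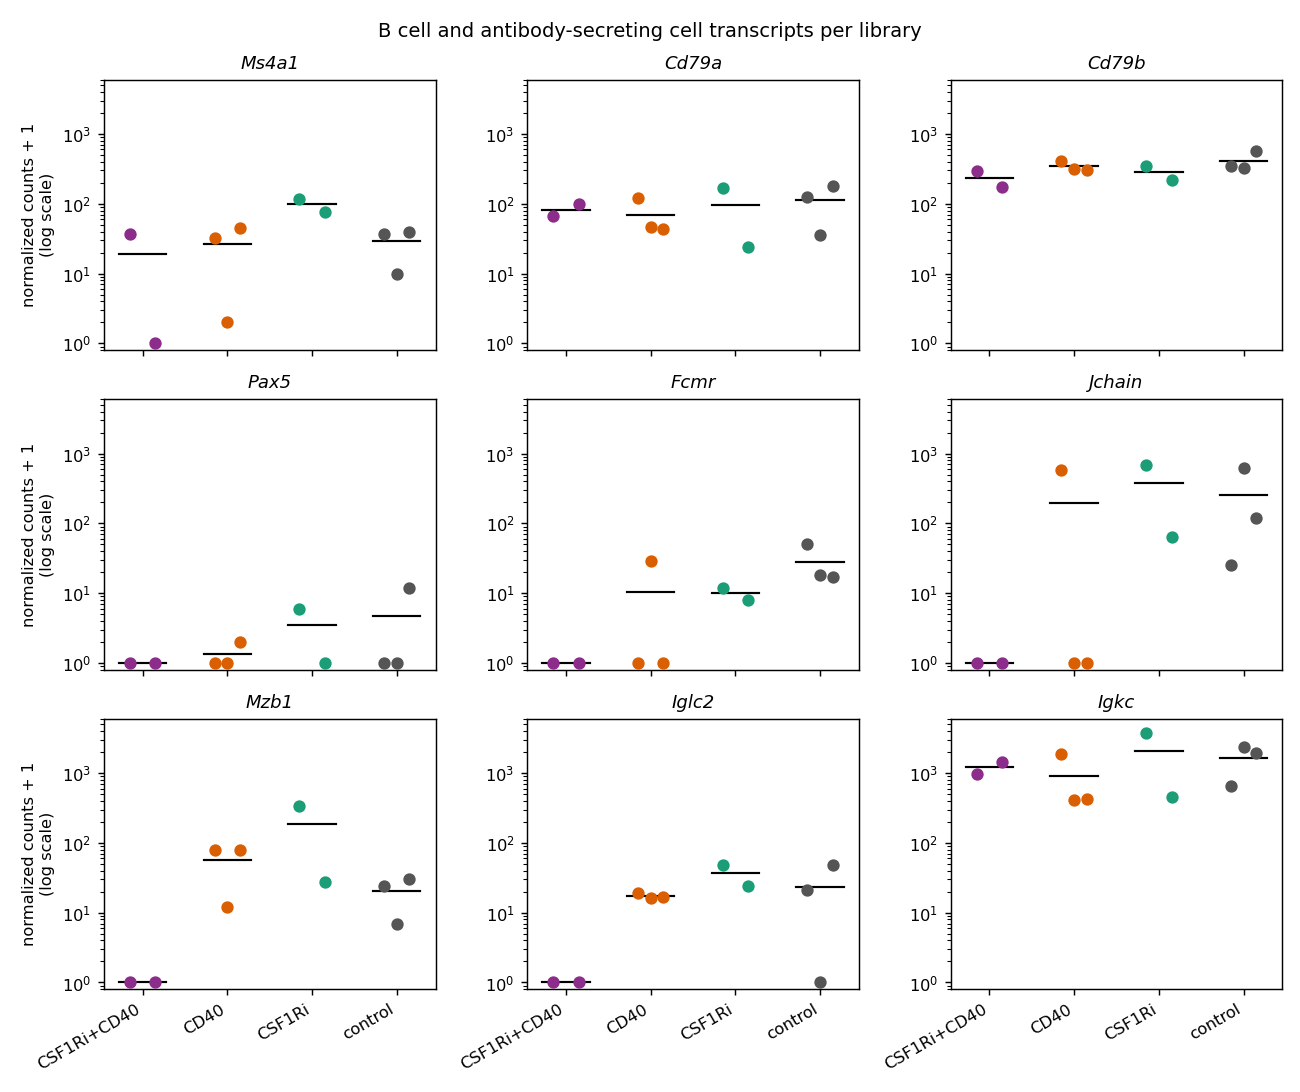
Normalized counts (y axis, log scale of value + 1) of each of the 9 genes in every library, with the CSF1Ri+CD40, CD40, CSF1Ri and control groups from left to right. Points are libraries and lines are group means. Jchain, Mzb1, Iglc2, Fcmr and Pax5 lie at 0 in both CSF1Ri+CD40 libraries, whereas Igkc is 969 and 1446 there.

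Among the surface and signalling genes, Ms4a1, on chromosome 19 (11249675-11266241 of GRCm38), encodes CD20. It had 36 and 0 normalized counts in the CSF1Ri+CD40 libraries and 31, 1 and 44 in the CD40 libraries. It had 118 and 76 in the CSF1Ri libraries, against 36, 9 and 39 in the control libraries. Both CSF1Ri libraries lay above every other library. The limma log2 fold change on the log2(value + 1) scale was 1.96 ± 1.69 (SE) for CSF1Ri over control, with an adjusted p of 1. For CSF1Ri+CD40 over control it was -2.01 ± 1.69 with an adjusted p of 0.937, and the value 0 in CSF1Ri+CD40 3 decides it, since the estimate without that library is 0.59.

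Cd79a and Cd79b encode the signalling chains of the B cell receptor. Cd79a, on chromosome 7 (24897381-24902197), had 65 and 98 normalized counts in CSF1Ri+CD40 libraries, 119, 45 and 42 in CD40 libraries, 168 and 23 in CSF1Ri libraries, and 124, 35 and 177 in control libraries. Cd79b, on chromosome 11 (106311341-106314762), had 295 and 174 in CSF1Ri+CD40 libraries, 411, 319 and 308 in CD40 libraries, 348 and 219 in CSF1Ri libraries, and 351, 324 and 563 in control libraries. The groups of Cd79a overlapped throughout, while both CSF1Ri+CD40 libraries of Cd79b lay below all 3 control libraries. Cd79b averaged 235 ± 85.6 in CSF1Ri+CD40 libraries and 413 ± 131 in control libraries (SD, n = 2 and 3), a log2 fold change of -0.82 ± 0.41 (SE) that limma did not call (adjusted p = 0.925). Although the 2 chains work as a pair, Cd79b per Cd79a ran from 1.78 in CSF1Ri+CD40 3 to 9.52 in CSF1Ri 6.

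Fcmr, on chromosome 1 (130865669-130880791), encodes a receptor for immunoglobulin M. It was listed at 0 in both CSF1Ri+CD40 libraries, at 0, 28 and 0 in the CD40 libraries, at 11 and 7 in the CSF1Ri libraries, and at 49, 17 and 16 in the control libraries. Every control library thus lay above every CSF1Ri+CD40 and CSF1Ri library. By group means, against a floor of 3 counts per library, Fcmr was at least 9.11-fold lower in CSF1Ri+CD40 than in control. It was at least 5.5-fold lower without control 1. Pax5, on chromosome 4 (44524757-44710487), is the transcription factor that defines the B lineage. It was at 0 in both CSF1Ri+CD40 libraries, 0, 0 and 1 in CD40 libraries, 5 and 0 in CSF1Ri libraries, and 0, 0 and 11 in control libraries. It failed the filter of 10 normalized counts in at least 2 libraries, so 8 of the 9 genes were tested.

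RefSeq promoters (GRCm38.p6) were matched for 4 of the 9 genes, namely Cd79a, Pax5, Fcmr and Jchain. Those of a gene above 0 in every library (Cd79a) and of a gene at 0 in 4 libraries (Jchain) are printed as the 250 bases before the RefSeq start, with capitals for a motif match. For Cd79a that start lies inside the gene as GENCODE gives it above, so part of the window does too. The Cd79a window is chr7:24897247-24897496 on the plus strand, and the Jchain window is chr5:88527898-88528147 on the minus strand.
Cd79a promoter: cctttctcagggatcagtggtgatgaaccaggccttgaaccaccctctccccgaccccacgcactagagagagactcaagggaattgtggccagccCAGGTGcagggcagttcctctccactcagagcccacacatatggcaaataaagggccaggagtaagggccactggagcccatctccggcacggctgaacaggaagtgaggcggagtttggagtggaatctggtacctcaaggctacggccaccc
Jchain promoter: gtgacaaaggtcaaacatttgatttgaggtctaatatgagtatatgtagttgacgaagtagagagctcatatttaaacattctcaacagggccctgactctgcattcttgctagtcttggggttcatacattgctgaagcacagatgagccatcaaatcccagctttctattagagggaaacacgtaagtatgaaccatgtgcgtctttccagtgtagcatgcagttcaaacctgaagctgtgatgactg
Both strands were searched for the octamer ATGCAAAT, the EBF motif (TCCC and GGGA around any pair of bases), the E-box CAGGTG and the PRDM1 motif GAAAGTG. The only match in the 4 windows was CAGGTG, 154 bases before the RefSeq start of Cd79a. Among 32851 RefSeq windows of the same length, 1.60% held the octamer, 0.779% the EBF motif, 17.2% the E-box and 4.01% the PRDM1 motif.

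Among the genes of antibody secretion, Jchain, on chromosome 5 (88519809-88527891), encodes the chain that joins IgA and IgM into polymers. It was listed at 0 in both CSF1Ri+CD40 libraries and at 582, 0 and 0 in the CD40 libraries. It had 683 and 63 normalized counts in the CSF1Ri libraries, against 24, 611 and 120 in the control libraries. Jchain was at 0 in 4 of the 10 libraries, and no CSF1Ri or control library was among them. By group means, and again against 3 counts per library, Jchain was at least 83.9-fold lower in CSF1Ri+CD40 than in control. It was at least 124-fold lower than in CSF1Ri. The means cover a wide spread, from 24 to 611 in control and from 63 to 683 in CSF1Ri. The bounds were 24.0 without control 2 and 21.0 without CSF1Ri 1. The libraries CD40 2 and CD40 3, with 0, are also those with Y-linked transcripts. Among the 7 libraries without these, Jchain had 0 and 0 in CSF1Ri+CD40, 582 in CD40, 683 and 63 in CSF1Ri, and 611 and 120 in control.

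Mzb1, on chromosome 18 (35647267-35649367), encodes a chaperone that helps assemble and secrete immunoglobulin. It had 0 and 0 normalized counts in CSF1Ri+CD40 libraries, 79, 11 and 77 in CD40 libraries, 342 and 27 in CSF1Ri libraries, and 23, 6 and 29 in control libraries. Each of the 8 libraries outside the CSF1Ri+CD40 group was above 0. By group means Mzb1 was at least 6.44-fold lower in CSF1Ri+CD40 than in control. It was at least 18.6-fold lower than in CD40 and at least 61.5-fold lower than in CSF1Ri. Without CSF1Ri 1 the last bound was 9.0. Its exons overlap those of Spata24, and the library kit kept no strand, so reads of the overlap cannot be told apart. Spata24 itself had 112 and 248 in CSF1Ri+CD40 libraries, 191, 149 and 105 in CD40 libraries, 140 and 117 in CSF1Ri libraries, and 84, 241 and 205 in control libraries, so it was not low in CSF1Ri+CD40. Mzb1 and Jchain are also expressed in plasmacytoid dendritic cells. The 9 marker genes of those cells summed to 1020 and 1439 in CSF1Ri+CD40 libraries, 840 to 1291 in CD40 libraries, 885 and 1055 in CSF1Ri libraries, and 705 to 1206 in control libraries. Irf8, Bst2 and Tcf4 had the highest means among them. In CSF1Ri+CD40 over control 6 of the 9 were lower and 3 higher, where 50.2% of all genes were lower. Of the 9, 2 were lower and 1 higher without overlap, where 9.6% and 10.6% of all genes were. Irf8 was the higher one, at a log2 fold change of 1.29. The defining marker Siglech was at 0 in both CSF1Ri+CD40 libraries and at 45, 0 and 0 in CD40 libraries. It was at 20 and 0 in CSF1Ri libraries and at 44, 28 and 62 in control libraries. The part of these markers in the result was not tested.

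Iglc2, on chromosome 16 (19198396-19200351), is a lambda constant region, and Igkc, on chromosome 6 (70726435-70726966), is the kappa constant region. Iglc2 had 0 and 0 normalized counts in CSF1Ri+CD40 libraries, 18, 15 and 16 in CD40 libraries, 48 and 23 in CSF1Ri libraries, and 20, 0 and 48 in control libraries. Igkc had 969 and 1446 in CSF1Ri+CD40 libraries, 1861, 405 and 426 in CD40 libraries, 3728 and 458 in CSF1Ri libraries, and 654, 2394 and 1921 in control libraries. Iglc2 shares long stretches of sequence with the other lambda constant regions, so its counts depend on how shared reads were assigned. Both CSF1Ri+CD40 libraries of Iglc2 lay below all CD40 and CSF1Ri libraries but met control 2 at 0. Igkc overlapped in every comparison, with 1208 ± 337 in CSF1Ri+CD40 and 1656 ± 900 in control libraries (SD, n = 2 and 3).

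Of the members, 0 passed the adjusted threshold of 0.05 in any comparison (limma over 15716 genes, 6 comparisons). In CSF1Ri+CD40 over control, 3 members had an unadjusted p under 0.05, where 5.4% of all genes did and 0.0% passed the adjusted threshold. These were Mzb1 (log2 fold change -4.10 ± 1.36 SE, adjusted p = 0.810), Fcmr (-4.63 ± 1.60, adjusted p = 0.843) and Jchain (-6.94 ± 2.45, adjusted p = 0.849). Fitted values of genes at 0 depend on the pseudocount of 1, and the bounds given above do not. All 8 tested members were lower in CSF1Ri+CD40 than in control. Their median log2 fold change was -2.67, and -2.35 when the bounds replaced the fitted values of genes at 0. Of all genes, 50.2% were lower, with a median of -0.00217. For 3 of the 8 the direction turned when 1 library was left out. Cd79a was then at 0.269 without control 3, 0.092 without CSF1Ri+CD40 1 and 0.014 without control 1. Igkc was at 0.078 without control 2 and 0.0023 without CSF1Ri+CD40 1, and Ms4a1 at 0.59 without CSF1Ri+CD40 3. Cd79b, Fcmr, Jchain and Mzb1 had groups that did not overlap, where 9.6% of all genes were lower without overlap. No member was higher in that way, where 10.6% of all genes were. Fcmr, Jchain and Mzb1 were at 0 in both CSF1Ri+CD40 libraries and above 0 in every control library, which held for 138 genes, 0.878% of those tested. Markers of other cells differed in the same contrast. All 5 erythroid markers were lower, with sums of 13 and 501 in CSF1Ri+CD40 libraries and 2940 to 15906 in control libraries. All 8 mast cell markers were higher, with sums of 13786 and 2666 in CSF1Ri+CD40 libraries and 676 to 2888 in control libraries. Of 11 T cell markers 10 were higher, with sums of 154541 and 147253 in CSF1Ri+CD40 libraries and 108011 to 136143 in control libraries. None of these markers passed the adjusted threshold, and their part in the result was not tested.

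In CD40 over control, 6 of the 8 members were lower and 2 higher, and their log2 fold changes had a median of -0.69. Of all genes 50.6% were lower. Some of these directions turned with the libraries used. Over the 7 libraries without Y-linked transcripts Jchain was at 1.10, Ms4a1 at 0.68 and Cd79a at 0.58. In that setting CD40 1 is the only library of the CD40 group, so these values carry no spread within it. Ms4a1 was at 0.63 without CD40 2, Cd79b at 0.025 without control 3, and Iglc2 at -0.89 without control 2. No member had an unadjusted p under 0.05, where 6.39% of all genes did and 0.00636% passed the adjusted threshold. No group of a member stood clear of the other, where 4.91% of all genes were lower and 4.19% higher without overlap. The smallest p belonged to Fcmr (log2 fold change -3.01 ± 1.43 SE, adjusted p = 0.773 in limma), which was at 28 in CD40 2 alone. All 5 erythroid markers were lower in CD40 than in control (sums of 876 to 1195 in CD40 libraries and 2940 to 15906 in control libraries), and all 8 mast cell and all 11 T cell markers were higher. Their part was not tested.

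In CSF1Ri over control, 4 members were higher and 4 lower, and their log2 fold changes had a median of 0.31, while 48.4% of all genes were lower. No member had an unadjusted p under 0.05, where 4.08% of all genes did and 0.00636% passed the adjusted threshold. Ms4a1 was higher and Fcmr lower without overlap, where 11.6% of all genes were higher and 10.3% lower in that way. Mzb1 had the smallest p, at a log2 fold change of 2.52 ± 1.36 (SE) and an adjusted p of 1 in limma. The value of 342 in CSF1Ri 1 carried much of it, since the estimate without that library was 0.71. The direction of Jchain depended on the libraries used, at 0.77 ± 2.45 (SE) over all 10 libraries but -0.38 over the 7 without Y-linked transcripts and -0.94 without CSF1Ri 1. Without CSF1Ri 6, Cd79a was at 0.86 and Igkc at 1.37. Igkc was also at 0.22 without control 2 and 0.063 without control 3. All 5 erythroid and all 7 keratinocyte markers were lower in CSF1Ri than in control, and all 11 T cell markers higher. Keratinocyte markers summed to 291 and 364 in CSF1Ri libraries and to 852 to 1770 in control libraries, and their part was not tested.

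Set against the single treatments, Mzb1 and Iglc2 were lower in both CSF1Ri+CD40 libraries than in every CD40 and CSF1Ri library, while Igkc overlapped in each and Jchain met 2 CD40 libraries at 0. Over CSF1Ri, 7 of the 8 members were lower, and Ms4a1, Fcmr, Jchain, Mzb1 and Iglc2 did not overlap, where 16.8% of all genes were lower in that way and 16.5% higher. Fcmr, Jchain, Mzb1 and Iglc2 were at 0 in both CSF1Ri+CD40 libraries and above 0 in both CSF1Ri libraries, which held for 1.58% of all genes. Mzb1 ranked 9 among all genes by p, at -6.61 ± 1.49 (SE) on the log2 scale with an adjusted p of 1 in limma. In this contrast 3 members had an unadjusted p under 0.05, where 3.58% of all genes did and 0.0% passed. Over CD40, 6 of the 8 were lower, and Cd79b, Mzb1 and Iglc2 did not overlap, where 6.84% of all genes were lower without overlap and 8.19% higher. Mzb1 and Iglc2 were at 0 in both CSF1Ri+CD40 libraries and above 0 in all 3 CD40 libraries, which held for 0.566% of all genes. Mzb1 was at -5.40 ± 1.36 (adjusted p = 0.761) and Iglc2 at -4.11 ± 1.55 (adjusted p = 0.959), and 4.96% of all genes had an unadjusted p under 0.05. The interaction, which asks whether the combination differs from the sum of both single treatments on the log2 scale, was -7.91 ± 1.93 for Mzb1 and -5.88 ± 2.19 for Iglc2. Each had an adjusted p of 0.991, and 4.17% of all genes had an unadjusted p under 0.05. These comparisons share libraries with those against control, so they are not independent of them.

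**Figure D2:**
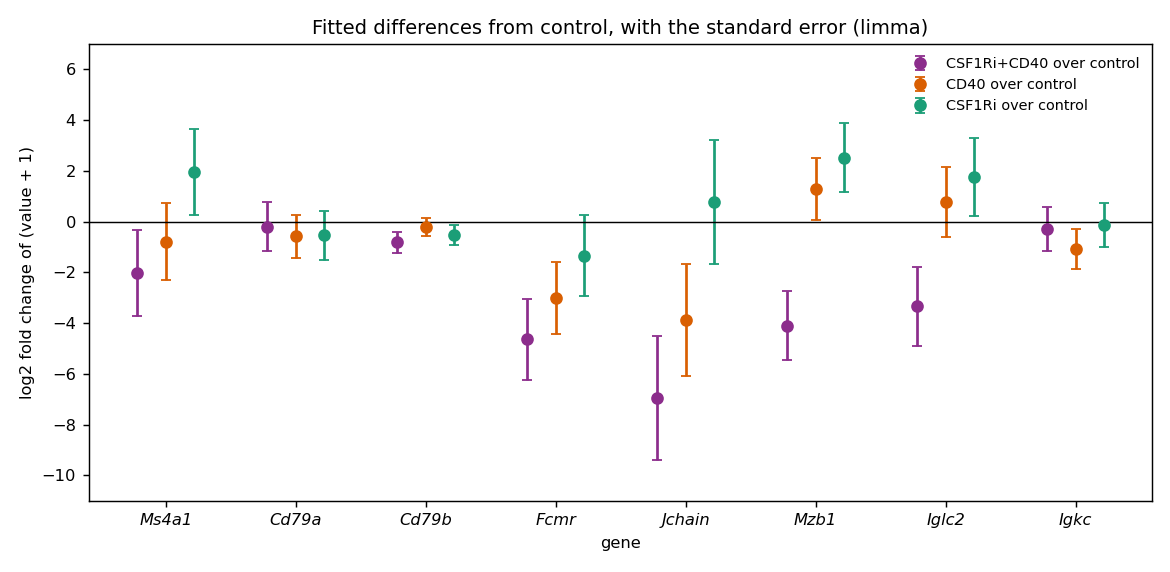
Log2 fold changes from control on the log2(value + 1) scale (y axis) of the 8 tested genes (x axis) in CSF1Ri+CD40, CD40 and CSF1Ri, with bars for the standard error. All 8 points of CSF1Ri+CD40 lie below 0, and no gene passed the adjusted threshold.

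The immunoglobulin constant regions form a list of 10 genes, of which 9 were tested, besides the 2 among the members. In CSF1Ri+CD40 over control all 9 were lower, where 50.2% of all genes were, and 3 did not overlap, where 9.6% of all genes were lower in that way. The adjusted threshold in limma was passed by 0, and 3 had an unadjusted p under 0.05, where 5.4% of all genes did. In CD40 over control 7 of the 9 were lower, where 50.6% of all genes were. Of the 9, 2 were lower without overlap, where 4.91% of all genes were. In CSF1Ri over control 6 of the 9 were lower, where 48.4% of all genes were. There 0 did not overlap, where 10.3% of all genes were lower in that way and 11.6% higher. Ighm, the mu constant region on chromosome 12, was high everywhere, with 5446 and 4419 normalized counts in CSF1Ri+CD40 libraries, 3836 to 6028 in CD40 libraries, 5319 and 4143 in CSF1Ri libraries, and 4726 to 6632 in control libraries. The switched constant regions, which follow activation, summed to 0 and 0 in CSF1Ri+CD40 libraries and to 1529, 86 and 3 in CD40 libraries. They summed to 3008 and 1 in CSF1Ri libraries, against 103, 829 and 1180 in control libraries. Igha made up 1524 of the sum in CD40 1, Ighg1 made up 1784 of it in CSF1Ri 1, and Ighg2c made up 1106 of it in control 3. Ighg2c had 0 and 0 in CSF1Ri+CD40 libraries, 5, 0 and 0 in CD40 libraries, 619 and 0 in CSF1Ri libraries, and 93, 136 and 1106 in control libraries. Its p was 0.00429 for CSF1Ri+CD40 over control (adjusted p = 0.743 in limma) and 0.00439 for CD40 over control (adjusted p = 0.691). Ighg2b was at 0 in every CSF1Ri+CD40 and CD40 library, at 18 and 0 in CSF1Ri libraries, and at 10, 606 and 62 in control libraries.

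The kappa variable segments, 160 in all, summed to 39 and 0 normalized counts in CSF1Ri+CD40 libraries and to 1502, 68 and 1 in CD40 libraries. They summed to 3171 and 138 in CSF1Ri libraries, against 206, 1549 and 1357 in control libraries. Per 100 counts of Igkc that is 4.03 and 0 in CSF1Ri+CD40 libraries, 80.7, 16.8 and 0.235 in CD40 libraries, 85.1 and 30.1 in CSF1Ri libraries, and 31.5, 64.7 and 70.6 in control libraries. Both CSF1Ri+CD40 libraries thus held Igkc at 969 and 1446 with almost no variable segment counted. The 5 kappa joining segments were higher there, with sums of 46 and 66 in CSF1Ri+CD40 libraries, 8 to 21 in CD40 libraries, 5 and 14 in CSF1Ri libraries, and 14 to 27 in control libraries.

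**Figure D3:**
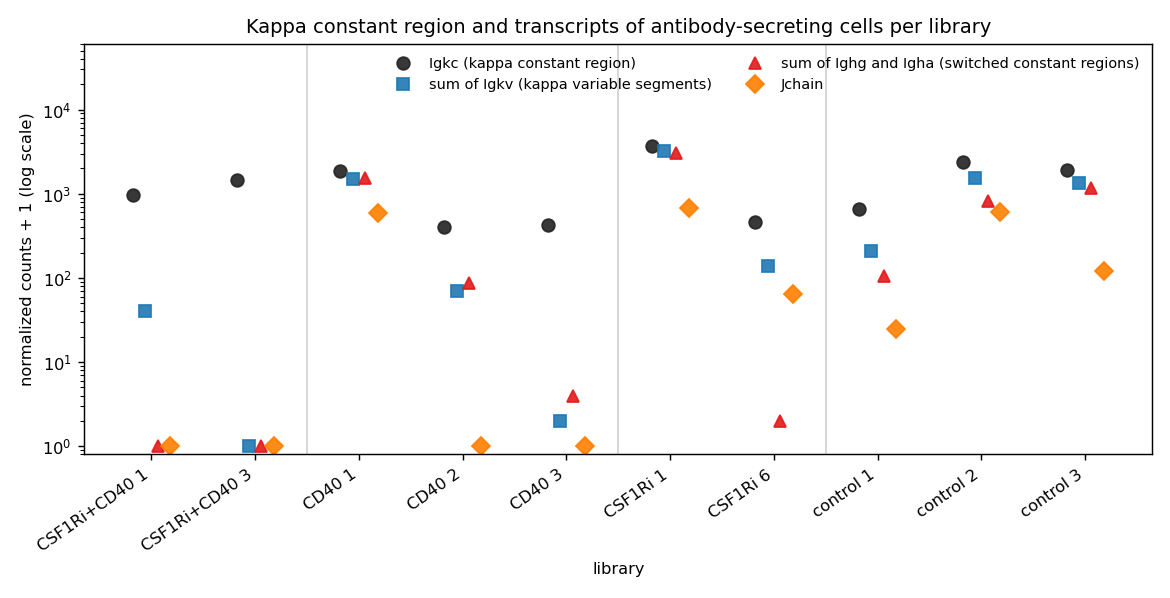
Normalized counts (y axis, log scale of value + 1) of Igkc, the summed kappa variable segments, the summed switched heavy chain constant regions and Jchain in the 10 libraries, in the order CSF1Ri+CD40, CD40, CSF1Ri and control. Igkc stays at 405 or above in every library, while the switched regions and Jchain are at 0 in both CSF1Ri+CD40 libraries and the variable segments are at 39 and 0 there.

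Where kappa variable segments were abundant, few of them supplied most of the counts, and different segments led in different libraries. Igkv12-46 held 1216 of the 1502 counts in CD40 1 (81.0%). Igkv6-15 held 1906 (60.1%) and Igkv1-135 held 854 in CSF1Ri 1. Igkv1-135 held 935 (60.4%) in control 2, and Igkv12-44 held 753 (55.5%) in control 3, where Igkv9-124 held 480. In the heavy chain, Ighv5-6 held 676 (63.0%) of the variable counts of CSF1Ri 1, and Ighv5-12 held 486 (68.3%) of those of control 3. Between 9 and 25 kappa segments were above 0 in these 4 libraries, against 3 and 0 in the CSF1Ri+CD40 libraries. Few were also above 0 in CD40 2 (4), CD40 3 (1) and CSF1Ri 6 (7), while control 1 had 10. Each library pools tumors, so a leading segment cannot be assigned to a mouse.

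**Figure D4:**
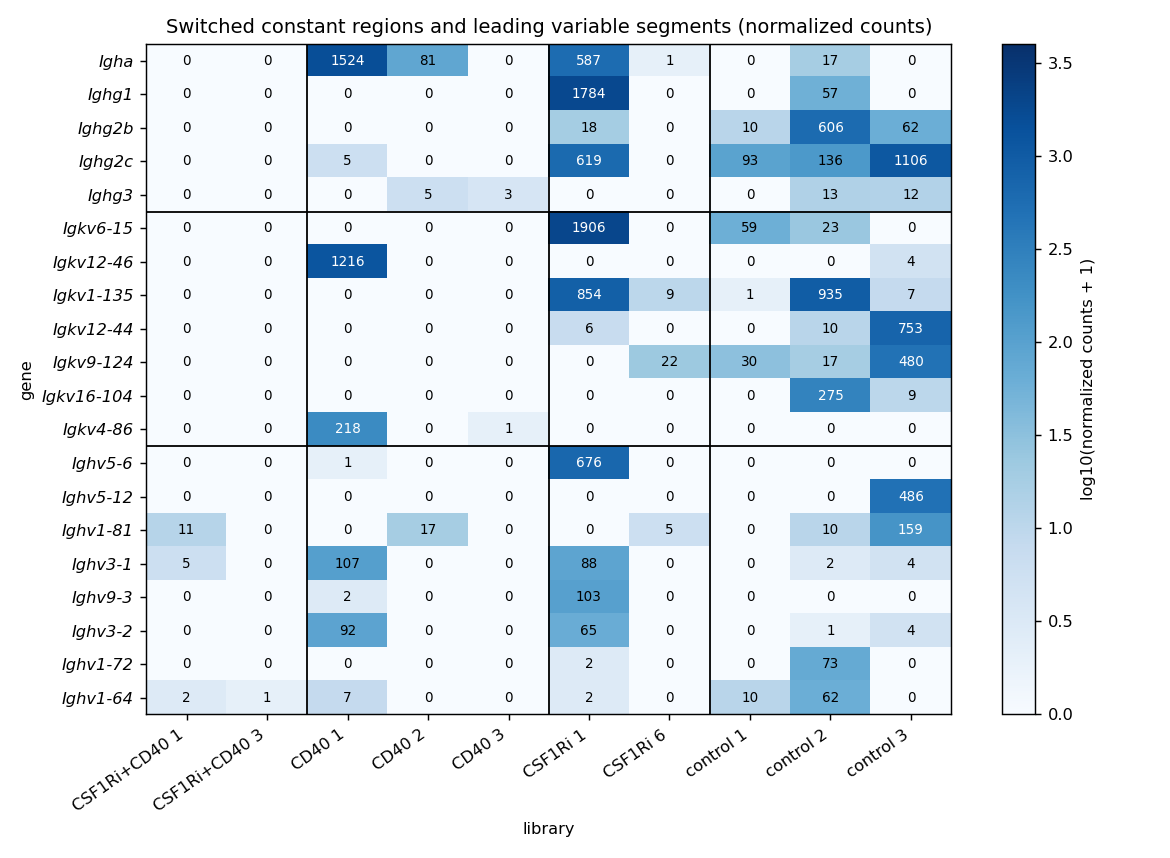
Normalized counts (printed in each cell, with color for log10 of value + 1) of the switched constant regions and the leading kappa and heavy chain variable segments (rows) in each library (columns), with the CSF1Ri+CD40, CD40, CSF1Ri and control libraries from left to right. A different segment leads in CD40 1 (Igkv12-46, 1216), CSF1Ri 1 (Igkv6-15, 1906), control 2 (Igkv1-135, 935) and control 3 (Igkv12-44, 753).

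Other genes of the pathway were read from lists, in none of which a gene passed the adjusted threshold in any comparison (limma, 0 called). Of 27 other B cell genes, 24 were tested, and 17 were lower and 7 higher in CSF1Ri+CD40 than in control. In CD40 over control 16 were lower and 8 higher, and in CSF1Ri over control 13 were lower and 11 higher. Of all genes, 50.2%, 50.6% and 48.4% were lower in these comparisons, in the same order. The other B cell genes at an unadjusted p under 0.05 numbered 1, 1 and 2, where 5.4%, 6.39% and 4.08% of all genes were. Cd37, a tetraspanin shared with T cells, ran from 3583 to 5862 normalized counts over all libraries. Cd81, another tetraspanin, which B cells and T cells both express, had 3353 and 2489 in CSF1Ri+CD40 libraries, 3705, 4444 and 2914 in CD40 libraries, 2371 and 2249 in CSF1Ri libraries, and 1606, 2137 and 2309 in control libraries. Its log2 fold change in CD40 over control was 0.87 ± 0.23 (SE) with an adjusted p of 0.666. Pou2af1, a B cell coactivator, had 0 and 12 in CSF1Ri+CD40 libraries, 123, 14 and 84 in CD40 libraries, 5 and 10 in CSF1Ri libraries, and 29, 16 and 56 in control libraries. Blnk, an adaptor of the B cell receptor, had 6 and 0 in CSF1Ri+CD40 libraries, 0 in all CD40 libraries, 37 and 27 in CSF1Ri libraries, and 0, 0 and 1 in control libraries.

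Of 16 other genes of antibody-secreting cells, 15 were tested, and 8 were higher and 7 lower in CSF1Ri+CD40 than in control. Several serve the secretory pathway of many cells, and Sec11c, a signal peptidase subunit, ran from 3301 to 5287 normalized counts. Sdc1 (CD138), the surface marker of plasma cells, had 105 and 379 in CSF1Ri+CD40 libraries, 239, 89 and 181 in CD40 libraries, 27 and 50 in CSF1Ri libraries, and 11, 55 and 157 in control libraries, and it is also made by epithelial cells. Tnfrsf17 (BCMA), the survival receptor of plasma cells, was above 0 in CD40 1 alone, at 30. Slamf7, which T cells and NK cells also express, had 1092 and 904 in CSF1Ri+CD40 libraries, 972, 1133 and 421 in CD40 libraries, 565 and 646 in CSF1Ri libraries, and 404, 476 and 187 in control libraries. Its log2 fold change in CSF1Ri+CD40 over control was 1.59, with an adjusted p of 0.761 in limma. In that comparison 3 genes of the list were lower and 2 higher without overlap, where 9.6% and 10.6% of all genes were. Ell2, a lower one, had 147 and 133 in CSF1Ri+CD40 libraries and 147, 189 and 191 in CD40 libraries. It had 120 and 80 in CSF1Ri libraries, and 408, 199 and 219 in control libraries. The log2 fold change of Ell2 in CSF1Ri+CD40 over control was -0.90, with an adjusted p of 0.925 in limma.

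Germinal center genes also ranged widely. Mef2b and Nuggc were at 0 in all 10 libraries, whereas Fas, which T cells express too, ran from 745 to 1327 and S1pr2 from 51 to 233 normalized counts. Of 10 genes 7 were tested, and all 7 were higher in CD40 than in control, where 50.6% of all genes were lower. Of the 7, 0 had an unadjusted p under 0.05 in limma, where 6.39% of all genes did. Of 12 genes that CD40 induces in B cells and other antigen-presenting cells, 8 were higher and 4 lower in CSF1Ri+CD40 than in control, and the counts were the same in CD40 over control and in CSF1Ri over control, where no antibody was given. Of 12 factors that attract or sustain B cells, 8 were tested, and 5 were higher in each comparison with control, though not the same 5. Tnfsf13b, Lta, Cxcr5 and Il6 were higher in all 3. Tnfsf13b (BAFF), the main B cell survival factor, had 208 and 27 in CSF1Ri+CD40 libraries, 180, 255 and 14 in CD40 libraries, 176 and 429 in CSF1Ri libraries, and 36, 101 and 34 in control libraries. Cxcl13, which draws B cells into follicles, was at 0 in 5 libraries and at most 79, in CD40 1.

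Among 12408 tested genes with a mean of at least 20, those nearest to the mean log2 profile of the B cell members over the 10 libraries were Hlf, 1700012B07Rik, Amacr and Zfp943. Their root mean square log2 differences from it were 0.483 to 0.510, where a flat gene gives 0.905. Nearest to the mean profile of the antibody-secreting members were Nek3 (1.01), Mmachc (1.10), B3gnt3 (1.24) and Trip13 (1.30), where a flat gene gives 1.97. Except for Mzb1 (1.27), every tested member lay farther from the mean profile of its own set than these genes. Ms4a1 (1.65), Fcmr (1.77), Cd79a (0.924) and Jchain (2.42) lay farther from it than a flat gene. The named genes were picked as the nearest of 12408, and the members were not picked by distance. Their distances are therefore not compared on equal terms.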

How the data were processed

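RNA of tumor-derived cells was measured by bulk sequencing of 10 libraries. Per the labels' protocols, 50 ng of RNA went into SMARTer libraries without strand information, sequenced as 75-base paired reads, 6 libraries to a lane. STAR, HTSeq and DESeq2 were used on GRCm38, per the submitters' processing notes, with versions not given in the sources used here. The authors deposited scores, namely counts divided by size factors and rounded, which are called normalized counts here. Values were tested as log2(value + 1) with limma 3.58.1 in R 4.3.3, in 1 fit over all 4 groups with a variance trend (6 residual degrees of freedom). A gene was tested if 2 or more libraries held 10 or more normalized counts (15716 of 48825), and adjusted p-values are Benjamini-Hochberg over these genes, two-sided, at 0.05. The scripts were tested on simulated data.

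The members and gene lists were chosen with earlier results of these data known. Named genes are all members, the list genes highest in mean or without overlap between groups, and the 8 genes nearest to each profile, of which 4 each are given. Mef2b, Nuggc, Fcer2a, Fcrl1, H2-Ob, Cxcr5, Fcrl5, Sdc1, Tnfrsf17 and Cxcl13 were added after their values were seen, and some items are not reported here. Exon lengths and positions are from GENCODE vM21. The labels do not say that replicate numbers pair the libraries, which were fitted as unpaired. Correlations of departures from group means for same-numbered libraries ran from -0.11 to 0.0913. Libraries of different number were not compared in this way, so these values cannot decide on pairing. There were 12 alternatives, among them the replicate block and the omission of each of the 10 libraries in turn. A fold against a group at 0 was the mean of the other group over a floor of 3 normalized counts per library. This floor covers counting error only, and not the spread between libraries.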

Additional observations from a re-analysis of the deposited data

Results flagged for a closer look

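For 2 genes the effect of a treatment ran in opposite directions with and without the other treatment. Mzb1 was lower in both CSF1Ri+CD40 libraries than the mean log2 level of the CD40 libraries, and higher in both CSF1Ri libraries than that of the control libraries. The CSF1Ri and control libraries of Mzb1 overlapped, with 27 in CSF1Ri 6 and 29 in control 3. Without CSF1Ri 1 its log2 fold change in CSF1Ri over control fell from 2.52 to 0.71. The difference between the 2 effects of the inhibitor on Mzb1 was -7.91 on the log2 scale. Iglc2 also ran in opposite directions for the inhibitor. It did so for the antibody too on the mean log2 scale, lower in CSF1Ri+CD40 than in CSF1Ri and higher in CD40 than in control. The difference was -5.88 in each case, since both are the same interaction term. The higher level in CD40 rests on the 0 in control 2, since without that library the log2 fold change of Iglc2 was -0.89. The higher level in CSF1Ri depends on it too. Without control 2 the log2 fold change of Iglc2 in CSF1Ri over control fell from 1.76 to 0.096. The mean of Iglc2 before the log was 16.3 in CD40 and 22.7 in control. In limma these interactions had adjusted p-values of 0.991, so neither passed the threshold.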

How the results depend on the processing

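No member passed the threshold under any setting in any of the 6 comparisons. In the 3 comparisons with control, the smallest adjusted p of a member in any setting was 0.293. Of 487 member fold changes recomputed for those 3 comparisons, 466 kept their direction and 21 turned, 15 of these with 1 library left out. The replicate block was fitted without the CSF1Ri libraries, so comparisons that use that group were not run in it. Under it, 0 members and, in CD40 over control, 0 genes passed, against 1 in the main fit of all 10 libraries. The count of all genes past the threshold was less stable. Without a variance trend it was 6 for CSF1Ri over control, 2 for CD40 over control, 13 for CSF1Ri+CD40 over control, 15 for CSF1Ri+CD40 over CSF1Ri, 9 for CSF1Ri+CD40 over CD40 and 6 for the interaction. CSF1Ri over control, at 1, went to 0 with a pseudocount of 5, no filter, a filter on a mean of 50, a Y-linked term or the 7 libraries without Y-linked transcripts. CD40 over control, at 1, went to 0 with no filter or those 7 libraries. CSF1Ri+CD40 over control, at 0, went to 1 with a pseudocount of 5 or the mean filter. With 1 library left out, counts ran from 0 to 0, 0 to 3, 0 to 36, 0 to 6, 0 to 20 and 0 to 2 in the order of the comparisons above. The highest came without CSF1Ri+CD40 1 (36, 6 and 20, against 7, 1 and 1 without CSF1Ri+CD40 3) and without CD40 1 (3 for CD40 over control, 2 for the interaction). The causes were not tested.

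Directions turned as follows. For CSF1Ri over control, Jchain was -1.34 with a Y-linked term and -0.38 in the 7 libraries. In those libraries, where CD40 1 stands alone for its group, CD40 over control gave 0.58 for Cd79a, 1.10 for Jchain and 0.68 for Ms4a1. There, CSF1Ri+CD40 over control gave 0.014 for Cd79a. With 1 library left out, log2 fold changes of CSF1Ri over control ran from -1.95 to 0.86 for Cd79a, -1.65 to 1.37 for Igkc and -0.94 to 2.48 for Jchain. Those of CD40 over control ran from -0.37 to 0.025 for Cd79b, -0.89 to 1.92 for Iglc2 and -1.62 to 0.63 for Ms4a1. Those of CSF1Ri+CD40 over control ran from -0.88 to 0.27 for Cd79a, -0.86 to 0.078 for Igkc and -4.62 to 0.59 for Ms4a1. A library left alone in its group takes its spread from the other groups. Several genes lie near the floor of 3 counts, so absence there was not detectable at this depth.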
